A study of Homo sapiens with 12 samples.

Results

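The genes described here are 39 that make, store and export cholesterol and fatty acids, out of 58721 in the deposited tables. They were picked by symbol from a list of what each gene is known to do, and no measured value entered the rule, but the list was drawn up with earlier results of these data known. RNA-seq was performed on 12 libraries of 2 human pancreatic cancer cell lines, Pa-Tu-8902 (titled Tu8902) and MIA PaCa-2 (titled Mia), with 3 untreated and 3 doxycycline (dox)-treated libraries in each line. Both lines are stably transduced, drug-selected cells with iDox-shGOT1, a hairpin against GOT1 that dox switches on, and all groups grew in DMEM with serum. Dox was given for 5 days, at 1 µM/mL in the labels and 1 µg/mL in the methods, and untreated cells of the same line were the controls. No dox-treated library without the GOT1 hairpin is among the 12, so an effect of dox and an effect of GOT1 loss cannot be told apart, and which hairpin was sequenced is not given in the sources used here. Nothing states that replicates were separate cultures, so the p-values measure the spread between these libraries, which may be technical.

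Cells control sterols from opposite ends. When membrane cholesterol is low, SCAP carries the SREBP transcription factors (SREBF1 and SREBF2) out of the endoplasmic reticulum, unless the INSIG proteins hold them there, and the released factors raise the genes of cholesterol and fatty acid synthesis. When sterols are plentiful, oxysterols activate the liver X receptors (LXR; NR1H3 is LXRα and NR1H2 is LXRβ), which raise the exporters ABCA1 and ABCG1 and the ubiquitin ligase MYLIP, while surplus cholesterol is stored as esters by SOAT1 and freed again by hydrolases such as NCEH1.

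The promoters were searched for the element through which SREBP is known to act and for the box of its partner NF-Y. Of the 39 genes, 34 have a promoter window in RefSeq (GRCh38.p14), which runs from 250 bases before the start to 50 after it. Exact matches were searched on both strands. The core of the sterol regulatory element, TCACNCCAC, was found in 1 of these 34 genes, SREBF2 (2.94%, against 1.39% of all genes in the promoter table), and in 0 of the 15 cholesterol synthesis and 7 fatty acid genes with a window. The NF-Y box, CCAAT or ATTGG on the other strand, was found in 25 of 34 (73.5%, against 39.7% of all genes), and in 13 of those 15 cholesterol synthesis genes. The direct repeat that LXR binds (AGGTCA, 4 bases, AGGTCA) was found in 0 of 34, and in 0.0199% of all windows. A match is a description of letters and not a site. Only exact letters within these windows were searched, so a missing match does not show that an element is missing. The stretches below are shown because SREBF2 holds both motifs together and because HMGCS1 and MSMO1 are the cholesterol synthesis genes whose RNA rose. They end before the RefSeq start and are written 5′ to 3′ on the strand of the gene, with the sterol regulatory element core and the NF-Y boxes in capitals.
SREBF2, chr22:41832942-41833010, plus strand: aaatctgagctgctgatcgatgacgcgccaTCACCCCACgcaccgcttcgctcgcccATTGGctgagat
HMGCS1, chr5:43313498-43313577, minus strand: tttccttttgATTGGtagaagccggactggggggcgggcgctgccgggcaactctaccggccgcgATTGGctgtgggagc
MSMO1, chr4:165327474-165327649, plus strand: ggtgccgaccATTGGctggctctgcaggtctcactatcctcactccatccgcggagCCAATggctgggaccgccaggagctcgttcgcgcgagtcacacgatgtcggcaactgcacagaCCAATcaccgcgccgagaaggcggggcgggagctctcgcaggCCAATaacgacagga
In these stretches HMGCS1 carries 2 NF-Y boxes here and MSMO1 carries 4. Of the other members called in a line, NR1H3, MYLIP, NCEH1, ACLY, TM7SF2, SCD and FADS2 hold the box in their windows, while NR1H2, ABCA1 and ELOVL6 hold none.

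Levels are given per library in TPM, the authors' unit that corrects for transcript length and depth. Fold changes, standard errors (SE) and p-values come from edgeR's quasi-likelihood test on the expected counts, fitted on all genes, with Benjamini-Hochberg adjustment. A gene was called when its adjusted p was below 0.01 and its fold change at least 1.5, and "rose" and "fell" are used of called genes only. The libraries held 26226537 to 43406137 counts. GOT1, the targeted enzyme, stood at 78.3, 81.5 and 83.4 TPM in untreated and 4.51, 3.29 and 3.68 TPM in dox-treated Pa-Tu-8902, and at 44.1, 38.9 and 42.7 TPM and 1.68, 1.95 and 1.87 TPM in MIA PaCa-2. Of 6 epithelial markers, all averaged 1 TPM or more in Pa-Tu-8902 (list sum 8190 to 9080 TPM without and 6950 to 7950 TPM with dox) and 4 did in MIA PaCa-2 (2820 to 3090 and 2920 to 3160 TPM), where CDH1 and EPCAM were at most 0.36 TPM and the mesenchymal gene VIM reached 3531 TPM or more. Within that list CDH1 (log2 fold change 0.86) and CLDN4 (0.83) rose in Pa-Tu-8902, and KRT19 fell in MIA PaCa-2 (-1.66), from between 384 and 413 TPM to between 128 and 132 TPM. The list moved both ways in each line. In Pa-Tu-8902 every dox-treated library lay below the untreated ones for KRT8, KRT18 and KRT19, and above them for EPCAM. In MIA PaCa-2 the dox-treated libraries lay above the untreated ones for KRT18 and below them for CLDN4. Of 5 leukocyte markers only CD68 averaged 1 TPM or more. Of 6 fibroblast markers, COL1A2 alone averaged 1 TPM or more in MIA PaCa-2, and its summed list ran at 192 to 248 TPM without and 340 to 398 TPM with dox there (3.82 to 6.38 and 18.0 to 21.7 TPM in Pa-Tu-8902, where COL1A1 carried it). None of 10 proliferation genes was called in either line (0 with edgeR and with DESeq2, 8 and 6 at an unadjusted p below 0.05), with a summed level of 1900 to 1950 TPM without and 1760 to 1780 TPM with dox in Pa-Tu-8902, and 1730 to 1920 and 1820 to 1860 TPM in MIA PaCa-2. The part of these lists in the results below was not tested. Untreated MIA PaCa-2 replicate 2 stood apart: it had the lowest TPM of its group for 33 of 38 tested members (86.8%, against 63.5% of all tested genes). Values without this library are therefore given below for some members. Of the uncalled members, ACACA and NSDHL also went from positive to negative without it, at -0.05 and -0.02, and FASN moved to 0.06. Without it, the members called in MIA PaCa-2 were still called, with log2 fold changes of 0.76 for NR1H2, 0.91 for NR1H3, 1.37 for ABCA1, 0.9996 for MYLIP, 1.97 for NCEH1, -0.76 for TM7SF2, -0.98 for ACLY, -1.02 for ELOVL6, -0.96 for SCD and -0.93 for FADS2.

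With dox, 4 of the 5 LXR and efflux genes rose and ACLY fell in both lines, and few genes of cholesterol synthesis were called. Those 4 were the receptor genes NR1H2 and NR1H3, the exporter ABCA1 and the ligase MYLIP. In Pa-Tu-8902, 7 of 38 tested members were called (18.4%), next to 16.3% of all 14949 genes tested. Of these, 6 rose (HMGCS1, MSMO1, NR1H2, NR1H3, ABCA1 and MYLIP; background 9.22%) and 1 fell (ACLY; background 7.12%). In MIA PaCa-2, 10 of 38 were called (26.3%), next to 12% of 14589 genes, and 5 rose (NR1H2, NR1H3, ABCA1, MYLIP and NCEH1; background 4.36%) while 5 fell (TM7SF2, ACLY, ELOVL6, SCD and FADS2; background 7.64%). Without untreated replicate 2 of MIA PaCa-2, 11 were called, FADS1 being the added one. The share called in Pa-Tu-8902 was thus near that of all genes.

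The 5 members called in both lines were NR1H2, NR1H3, ABCA1, MYLIP and ACLY, each in the same direction. They are 71.4% of the members called in Pa-Tu-8902 and 50% of those called in MIA PaCa-2. Among all 13109 genes tested in both lines, 585 were called in both (4.46%), next to 5 of the 37 members so tested. The 71.4% of called members compares instead with 585 of the 2443 genes called for Pa-Tu-8902. The 50% compares with 585 of the 1751 genes called for MIA PaCa-2. Over the 37 members tested in both, 18 had fold changes of the same sign (48.6%), against 63.7% of all genes.

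**Figure D1:**
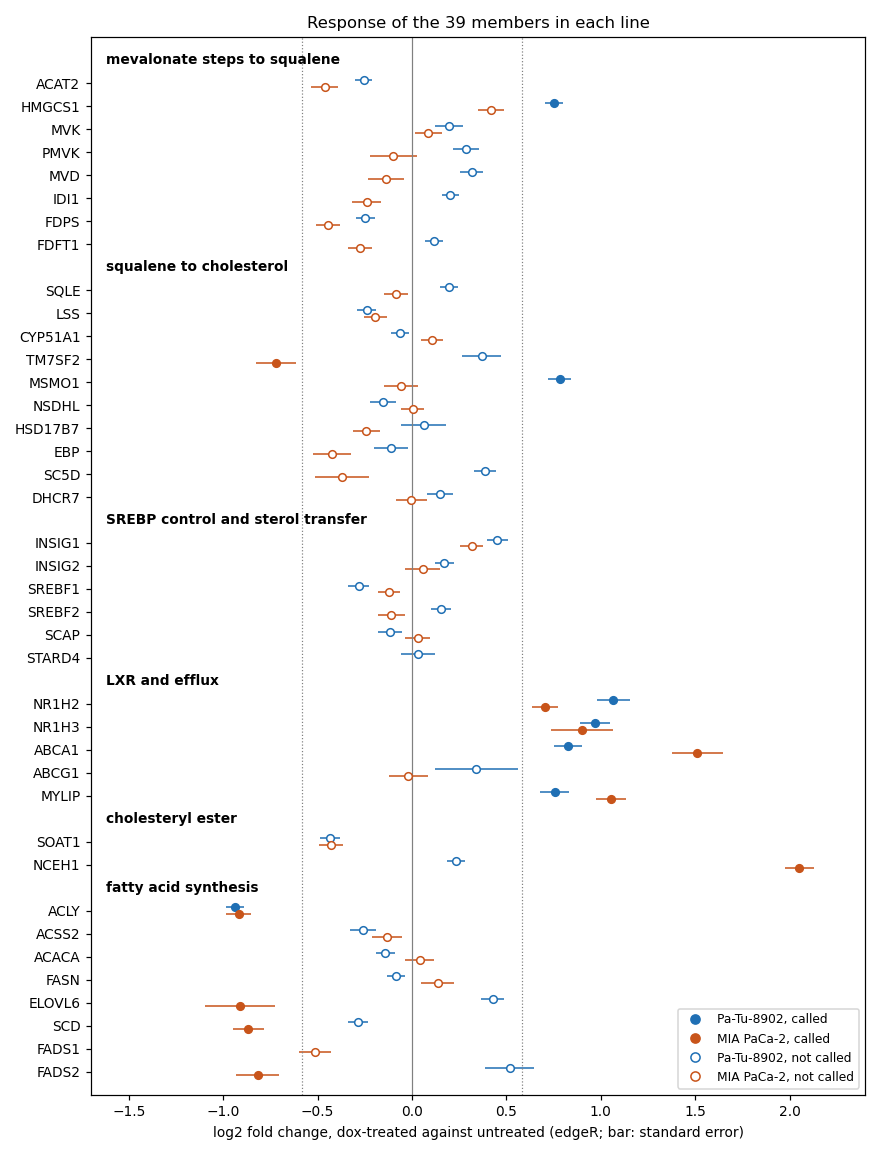
Log2 fold change with dox (x axis) of each member, ordered by role, in Pa-Tu-8902 (blue) and MIA PaCa-2 (orange), with bars for 1 standard error; filled points are called and dotted lines mark 1.5-fold. The LXR genes other than ABCG1 lie on the right in both lines, ACLY on the left in both, and NCEH1 at 2.05 in MIA PaCa-2 alone is farthest from 0.

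Of the 5 LXR and efflux genes, 4 rose in each line, with a group median log2 fold change of 0.83 for Pa-Tu-8902 and 0.90 for MIA PaCa-2, where all tested genes had medians of 0.0014 and -0.0089. Its summed level went from 60.8, 64.2 and 66.0 TPM to 130.3, 126.8 and 136.5 TPM in Pa-Tu-8902, a change of 106%. In MIA PaCa-2 it went from 44.9, 41.6 and 45.7 TPM to 80.3, 81.5 and 76.9 TPM, a change of 80.6%. In neither line did the groups overlap. These sums were not tested, and the receptor gene NR1H2 weighs most in them. Its mean went from 30.8 to 67.6 TPM in Pa-Tu-8902 and from 28.7 to 49.2 TPM in MIA PaCa-2. The exporters weigh little. Mean ABCA1 went from 3.93 to 7.64 TPM in Pa-Tu-8902 and from 0.797 to 2.37 TPM in MIA PaCa-2. Mean ABCG1 went from 0.59 to 0.823 TPM and from 3.45 to 3.52 TPM.

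NR1H2 (chr19:50329653-50383388, plus strand) encodes LXRβ, the form found in most tissues. It stood at 29.1, 30.5 and 32.8 TPM in untreated and 65.0, 67.1 and 70.6 TPM in dox-treated Pa-Tu-8902. For MIA PaCa-2 the values were 28.7, 27.9 and 29.5 TPM untreated and 49.7, 50.4 and 47.4 TPM with dox. The untreated lines were alike in this gene within their spread, and the dox-treated libraries lay above all untreated ones. The change on the log2 scale was 1.07 (SE 0.09, adjusted p = 3.85e-06, edgeR) for Pa-Tu-8902 and 0.70 (SE 0.07, adjusted p = 1.46e-05, edgeR) for MIA PaCa-2, and the difference of 0.36 between them was not called (adjusted p = 0.0344). The transcript NR1H2-201 took 75.5% to 80.2% of the gene's TPM in all 4 groups. NR1H2 shares 1182 exon bases with NAPSA on the opposite strand, which averaged 0.621 TPM.

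NR1H3 (chr11:47248300-47269033, plus strand) encodes LXRα, the form best known from liver and macrophages. It stood at 15.3, 17.6 and 19.6 TPM in untreated and 34.3, 34.8 and 37.7 TPM in dox-treated Pa-Tu-8902, a change that edgeR put at 0.97 on the log2 scale (SE 0.08, adjusted p = 3.49e-06). MIA PaCa-2 held less of it, at 2.93, 3.09 and 3.02 TPM untreated and 6.38, 7.96 and 6.02 TPM with dox, and the change on the log2 scale was 0.90 (SE 0.16, adjusted p = 0.0011, edgeR). The groups did not overlap in either line. The TPM values of MIA PaCa-2 moved further than its counts, and with RSEM's effective lengths in the fit the log2 fold change was 1.10. Its transcripts were mixed there: the retained-intron form NR1H3-224 averaged 8.79% of the gene's TPM without and 15.2% with dox. A further 189 exon bases are shared with ACP2 on the opposite strand (19.0 TPM on average).

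ABCA1 (chr9:104781006-104928155, minus strand) exports cholesterol to lipid-poor apolipoproteins and is the classic LXR target. It was low in both lines. In Pa-Tu-8902 it stood at 4.13, 4.02 and 3.65 TPM untreated and 8.83, 6.82 and 7.26 TPM with dox, a change that edgeR put at 0.83 on the log2 scale (SE 0.07, adjusted p = 7.34e-06). MIA PaCa-2 gave 0.86, 0.57 and 0.96 TPM untreated and 2.64, 2.38 and 2.09 TPM with dox, a change that edgeR put at 1.51 on the log2 scale (SE 0.13, adjusted p = 6.82e-06). The rise was larger in MIA PaCa-2, with a difference of -0.68 (Pa-Tu-8902 minus MIA PaCa-2, SE 0.16, adjusted p = 0.00319, edgeR), but the call was not stable. It was lost without untreated MIA PaCa-2 replicate 2 (-0.53), dox-treated MIA PaCa-2 replicate 1 (-0.58), untreated Pa-Tu-8902 replicate 1 (-0.63), or dox-treated Pa-Tu-8902 replicate 2 or 3 (-0.63 for either).

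MYLIP (chr6:16129086-16148248, plus strand) encodes the ligase that sends lipoprotein receptors for degradation. It stood at 11.7, 11.5 and 9.46 TPM untreated and 21.4, 17.3 and 20.01 TPM with dox in Pa-Tu-8902. MIA PaCa-2 libraries had 9.03, 6.85 and 8.5 TPM untreated and 17.9, 17.4 and 18.0 TPM with dox. No groups overlapped within a line. The log2 fold changes were 0.75 (SE 0.08, adjusted p = 1.90e-05, edgeR) for Pa-Tu-8902 and 1.05 (SE 0.08, adjusted p = 2.30e-06, edgeR) for MIA PaCa-2.

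ABCG1, the exporter to mature high-density lipoprotein, was the group's exception. Its log2 fold change was 0.34 in Pa-Tu-8902 (adjusted p = 0.221, edgeR) and -0.02 in MIA PaCa-2 (adjusted p = 0.895, edgeR), and it was low in Pa-Tu-8902, at 0.53 to 0.97 TPM over the 6 libraries, against 3.25 to 3.75 TPM in MIA PaCa-2. Of 5 further genes tied to LXR (LPCAT3, SMPDL3A, ABCA2, ABCG4 and the corepressor NCOR1), 0 of 4 tested were called in Pa-Tu-8902 and 0 of 5 in MIA PaCa-2. DESeq2 also called 0, and 1 in each line had an unadjusted p below 0.05. LPCAT3, which remodels membrane phospholipids, had log2 fold changes of -0.10 and 0.13. SMPDL3A had 0.67 in Pa-Tu-8902 (adjusted p = 0.0189) and -0.52 in MIA PaCa-2 (adjusted p = 0.344).

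**Figure D2:**
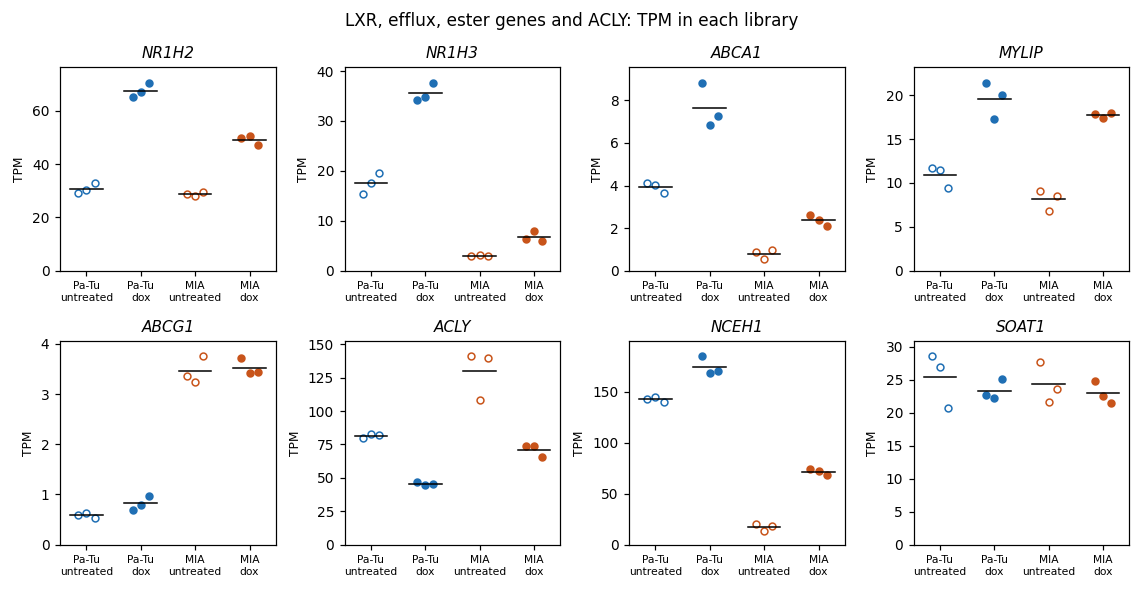
TPM (y axis, from 0) in each library of the 5 LXR and efflux genes, ACLY and the 2 ester genes, for the 4 groups on the x axis; open points are untreated, filled points dox-treated and lines group means. The dox-treated libraries lie above the untreated ones in both lines for NR1H2, NR1H3, ABCA1 and MYLIP, and NCEH1 in MIA PaCa-2 goes from 13.3 to 20.1 TPM up to 68.0 to 74.2 TPM.

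The 2 ester genes took different courses. NCEH1 (chr3:172630249-172711218, minus strand) encodes the neutral hydrolase that frees cholesterol from its esters at the endoplasmic reticulum. In Pa-Tu-8902 it was among the more abundant members, at 143, 145 and 139.5 TPM untreated and 184, 168 and 169.6 TPM with dox. In MIA PaCa-2 it began far lower, at 20.1, 13.3 and 17.9 TPM, and reached 74.2, 72.3 and 68.0 TPM with dox. The groups did not overlap in either line, yet dox-treated MIA PaCa-2 remained below every Pa-Tu-8902 library. NCEH1 rose in MIA PaCa-2 by a log2 value of 2.05 (SE 0.08, adjusted p = 1.84e-08, edgeR), and by 1.97 without untreated replicate 2; in Pa-Tu-8902 the log2 fold change was 0.23 (adjusted p = 0.00203, edgeR), under the fold limit. The difference of -1.82 (Pa-Tu-8902 minus MIA PaCa-2, SE 0.09, adjusted p = 6.37e-10, edgeR) was called and was the largest among the members. The transcript NCEH1-204 took 88.5% to 92.2% of the gene's TPM in all 4 groups.

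SOAT1, which makes the esters, was not called in either line. Its log2 fold change was -0.43 in Pa-Tu-8902 (adjusted p = 5.59e-05, edgeR) and -0.43 in MIA PaCa-2 (adjusted p = 2.56e-04, edgeR), under the fold limit in both. In TPM its groups overlapped in both lines, at 20.8 to 28.5 TPM untreated and 22.2 to 25.1 TPM with dox in Pa-Tu-8902, and with effective lengths in the fit the values were -0.19 for Pa-Tu-8902 (adjusted p = 0.129, edgeR) and -0.15 for MIA PaCa-2 (adjusted p = 0.203, edgeR). The leading SOAT1 transcript changed with dox in MIA PaCa-2, from SOAT1-201 to SOAT1-202.

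Of 18 cholesterol synthesis genes, 12 had a positive log2 fold change in Pa-Tu-8902, as 4 did in MIA PaCa-2. Their summed level was 1733, 1720.1 and 1748 TPM untreated and 1974, 1941 and 1912 TPM with dox in Pa-Tu-8902, a change of 12%. In MIA PaCa-2 it was 1078, 1057 and 1112 TPM and then 968, 919 and 921 TPM, a change of -13.5%. These sums were not tested, and their groups did not overlap in either line. Abundant genes weigh most in them. In MIA PaCa-2 the largest drops in mean TPM were those of FDPS (310 to 233), EBP (176 to 135) and ACAT2 (66.6 to 49.7), none of them called. Transcripts annotated as protein-coding took an estimated 70.9%, 18.5% and 55.7% of the TPM of these genes in untreated MIA PaCa-2. Few single genes were called: 2 of 18 in Pa-Tu-8902 (11.1%, both higher) and 1 of 18 in MIA PaCa-2 (5.56%, lower), shares below those of all genes.

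Of the 8 genes that lead to squalene, only HMGCS1 was called, and in Pa-Tu-8902. HMGCS1 (chr5:43287470-43313512, minus strand) joins acetyl-CoA to acetoacetyl-CoA at the entry to the pathway. It stood at 79.3, 77.1 and 68.8 TPM untreated and 140.7, 126.1 and 131.8 TPM with dox there, a change that edgeR put at 0.75 on the log2 scale (SE 0.05, adjusted p = 5.66e-07). MIA PaCa-2 held less, at 24.0, 16.8 and 21.5 TPM and at 29.5, 26.4 and 27.7 TPM, and its log2 fold change of 0.42 (adjusted p = 5.76e-04, edgeR) was under the fold limit. The dox-treated libraries lay above the untreated ones in both lines, and the difference of 0.33 between the lines was not called (adjusted p = 0.00703, under 1.5-fold). HMGCS1 shares 2497 exon bases with a long non-coding RNA on the opposite strand.

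The other 7 had log2 fold changes from -0.26 to 0.32 in Pa-Tu-8902. ACAT2, which makes acetoacetyl-CoA, had -0.26 there and -0.46 in MIA PaCa-2, and FDPS, which makes farnesyl diphosphate, had -0.25 and -0.45. MVD (0.32 and -0.14), IDI1 (0.20 and -0.24) and FDFT1, the squalene synthase (0.12 and -0.28), were positive in Pa-Tu-8902 and negative in MIA PaCa-2, as was PMVK (0.29 and -0.10). Without untreated MIA PaCa-2 replicate 2 the value there was 0.09 for PMVK, the opposite sign, and -0.02 for MVD. MVK was positive in both (0.19 and 0.09). In MIA PaCa-2, 0 of the 8 were called by edgeR or DESeq2 and 5 had an unadjusted p below 0.05. The difference between the lines was positive for all 8, from 0.11 to 0.45, and called for 0 by either tool, with 7 at an unadjusted p below 0.05. ACAT2 shares 454 exon bases with TCP1 on the opposite strand, which averaged 439 TPM, and no strand setting is stated for the counting, so its values are uncertain. FDPS and HSD17B7 have near-identical pseudogene copies. Expected counts of HSD17B7 were not whole in MIA PaCa-2 (607.8 to 868.92), where RSEM may have split reads between copies. They were whole for HSD17B7 in Pa-Tu-8902 and for FDPS in all 12 libraries, which shows no such split.

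In the steps from squalene to cholesterol, MSMO1 rose in Pa-Tu-8902 and TM7SF2 fell in MIA PaCa-2, out of 10 genes. MSMO1 (chr4:165327667-165343164, plus strand) encodes an oxidase that takes part in the removal of sterol methyl groups. It stood at 28.8, 27.4 and 29.6 TPM untreated and 53.8, 50.04 and 51.7 TPM with dox in Pa-Tu-8902, a change that edgeR put at 0.78 on the log2 scale (SE 0.06, adjusted p = 2.11e-06). In MIA PaCa-2 the groups overlapped, at 12.8, 9.30 and 11.8 TPM and at 11.2, 10.7 and 12.1 TPM, with a log2 fold change of -0.06 (adjusted p = 0.618, edgeR). The difference of 0.84 (SE 0.11, adjusted p = 1.79e-05, edgeR) was called.

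TM7SF2 (chr11:65111845-65116384, plus strand) encodes a sterol reductase. For MIA PaCa-2 the values were 10.9, 8.11 and 10.8 TPM untreated and 7.70, 5.79 and 6.21 TPM with dox, a change that edgeR put at -0.72 on the log2 scale (SE 0.11, adjusted p = 2.83e-04). In Pa-Tu-8902 it stood at 8.83, 8.90 and 8.74 TPM and at 12.7, 11.3 and 12.9 TPM, a log2 fold change of 0.37 that was not called (adjusted p = 0.0115, edgeR). The groups did not overlap in either line and lay on opposite sides, and the difference of 1.09 (SE 0.15, adjusted p = 3.59e-05, edgeR) was called.

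SC5D (chr11:121292681-121313410, plus strand), a desaturase near the end of the pathway, was called only for the difference between the lines. It stood at 37.7, 33.1 and 31.5 TPM untreated and 52.7, 42.3 and 48.6 TPM with dox in Pa-Tu-8902 (log2 fold change 0.39), and at 5.38, 4.15 and 4.52 TPM and 3.76, 3.12 and 3.44 TPM in MIA PaCa-2 (log2 fold change -0.37). The groups again lay on opposite sides, and the difference was 0.76 (SE 0.15, adjusted p = 7.84e-04, edgeR). In MIA PaCa-2 its transcript SC5D-201 took 24.2% to 46.2% of the gene's TPM without and 58.9% to 70.4% with dox, while in Pa-Tu-8902 it took 26.9% to 39.2% over all 6 libraries.

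The other 7 were not called in either line, with log2 fold changes from -0.24 to 0.20 in Pa-Tu-8902 and from -0.42 to 0.11 in MIA PaCa-2. SQLE, the epoxidase of squalene, had 0.20 and -0.09, and DHCR7, a last-step reductase, 0.15 and -0.0049. LSS had -0.24 and -0.20, CYP51A1 -0.06 and 0.11, NSDHL -0.16 and 0.0039, HSD17B7 0.06 and -0.24, and EBP -0.11 and -0.42 (-0.28 without untreated MIA PaCa-2 replicate 2). In GENCODE 44, CYP51A1 and EBP share 2844 and 644 exon bases with another annotated gene on the same strand. The counts were made with GENCODE 29, and whether it holds those genes was not checked. Expected counts of CYP51A1 were not all whole (2397.4 in untreated Pa-Tu-8902 replicate 2), so its values are uncertain. Those of EBP were whole in all 12 libraries, so its values are less so.

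**Figure D3:**
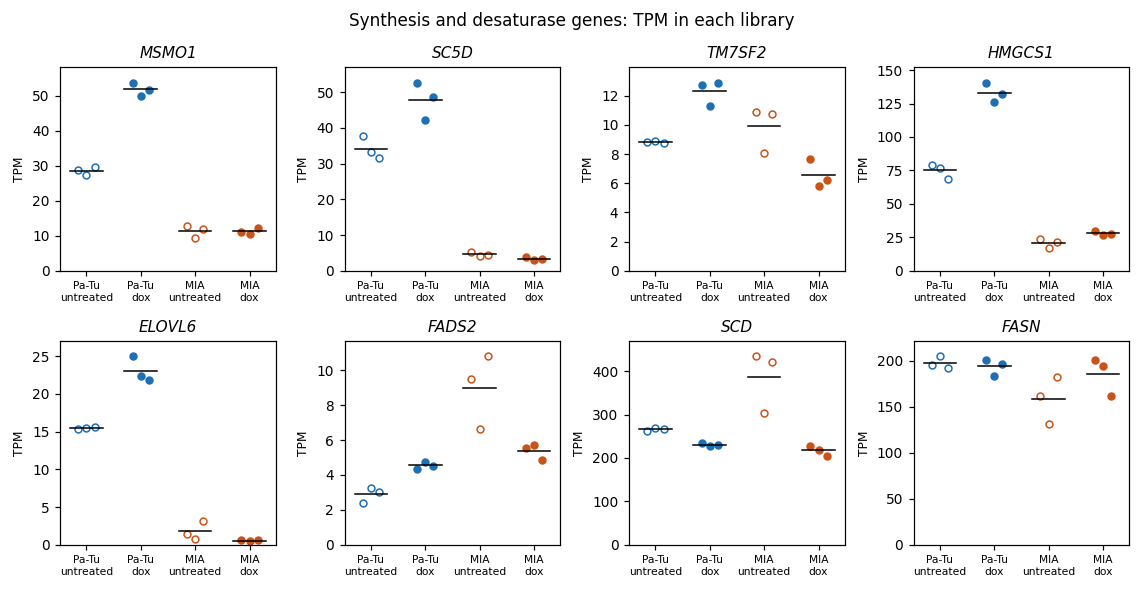
TPM (y axis, from 0) in each library of 4 cholesterol synthesis genes and 4 fatty acid genes, for the 4 groups on the x axis; open points are untreated, filled points dox-treated and lines group means. HMGCS1, MSMO1, SC5D, TM7SF2, ELOVL6 and FADS2 go up with dox in Pa-Tu-8902, while TM7SF2, SC5D, ELOVL6, FADS2 and SCD go down in MIA PaCa-2.

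The genes that control SREBP and move sterols were not called in either line (0 of 6 and 0 of 5 by edgeR and by DESeq2, with 4 and 1 at an unadjusted p below 0.05), and 0 of 6 differed in response. INSIG1, itself an SREBP target that retains SCAP, had the largest value, a log2 fold change of 0.45 in Pa-Tu-8902 (adjusted p = 5.88e-05) and 0.32 in MIA PaCa-2 (adjusted p = 0.00175), both from edgeR and under the fold limit. SREBF1 had -0.28 and -0.12, SREBF2 0.15 and -0.11, INSIG2 0.17 and 0.06, and SCAP -0.12 and 0.03. STARD4, a cytosolic sterol carrier, had 581 to 957 counts in Pa-Tu-8902 and a log2 fold change of 0.03 there. It had at most 1 count in each MIA PaCa-2 library and was not tested in that line.

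Of the 8 fatty acid genes, all tested in MIA PaCa-2, 4 fell there, with a group median of -0.67. Pa-Tu-8902 had 7 tested and 1 that fell, with a median of -0.14. The difference between these medians was not tested. The summed level went from 815, 605 and 824 TPM to 573, 558 and 496 TPM in MIA PaCa-2 (-27.5%), untreated replicate 2 being the low one, and from 629, 645 and 623 TPM to 583, 550 and 564 TPM in Pa-Tu-8902 (-10.6%). The groups did not overlap in either line.

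ACLY (chr17:41866917-41930542, minus strand) splits citrate to give the acetyl-CoA from which both fatty acids and sterols are built, and it was the member that fell in both lines. It stood at 79.8, 82.7 and 81.7 TPM untreated and 47.0, 44.9 and 45.1 TPM with dox in Pa-Tu-8902. MIA PaCa-2 gave 140.9, 108.6 and 139.9 TPM untreated and 73.7, 73.8 and 65.9 TPM with dox. The dox-treated libraries lay below every untreated one, with log2 fold changes of -0.94 (SE 0.05, adjusted p = 1.45e-07, edgeR) and -0.92 (SE 0.07, adjusted p = 1.61e-06, edgeR). The difference was -0.02 (SE 0.09, adjusted p = 0.934, edgeR).

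The other enzymes of acyl chain synthesis were not called. ACACA, which makes malonyl-CoA, had log2 fold changes of -0.14 and 0.04, FASN, the synthase, -0.08 and 0.14, and ACSS2, which makes acetyl-CoA from acetate, -0.26 and -0.13. FASN stood at 191.7 to 204.4 TPM untreated and 183.7 to 201.1 TPM with dox in Pa-Tu-8902.

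The desaturases SCD and FADS2 and the elongase ELOVL6 fell in MIA PaCa-2. SCD (chr10:100347233-100364826, plus strand) puts the first double bond into saturated acyl chains. It stood at 434, 304 and 422 TPM untreated and 227, 219 and 205 TPM with dox there, a change that edgeR put at -0.87 on the log2 scale (SE 0.08, adjusted p = 1.07e-05) and at -0.96 without untreated replicate 2. In Pa-Tu-8902 it stood at 262, 269 and 266 TPM and at 235, 228 and 230.01 TPM, and its log2 fold change of -0.29 was under the fold limit. The groups did not overlap in either line. The difference of 0.58 (adjusted p = 4.45e-04, edgeR) was just under 1.5-fold, and was called at 0.69 without untreated MIA PaCa-2 replicate 2.

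FADS2 (chr11:61792980-61867354, plus strand) starts the synthesis of polyunsaturated fatty acids. MIA PaCa-2 libraries had 9.53, 6.62 and 10.8 TPM untreated and 5.53, 5.71 and 4.85 TPM with dox, a change that edgeR put at -0.82 on the log2 scale (SE 0.11, adjusted p = 1.90e-04). In Pa-Tu-8902 it stood at 2.38, 3.27 and 3.05 TPM and at 4.36, 4.74 and 4.53 TPM, a log2 fold change of 0.52 (adjusted p = 0.00663, edgeR), under the fold limit. The groups lay on opposite sides, and the difference of 1.33 (SE 0.18, adjusted p = 2.87e-05, edgeR) was called. That fold in Pa-Tu-8902 was 0.60, and called, without untreated replicate 2. FADS1, the desaturase that acts after it, had a log2 fold change of -0.51 in MIA PaCa-2 (adjusted p = 6.15e-04, edgeR) and -0.59 without untreated replicate 2, which passed the fold limit. In Pa-Tu-8902 FADS1 had at most 1 count in each library and was not tested. The 2 genes share 490 exon bases on opposite strands.

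ELOVL6 (chr4:110045846-110199199, minus strand) lengthens saturated chains before desaturation. It was far higher in Pa-Tu-8902, at 15.3, 15.5 and 15.7 TPM untreated and 25.0, 22.3 and 21.9 TPM with dox (log2 fold change 0.43, adjusted p = 1.65e-04, edgeR, under the fold limit). For MIA PaCa-2 the values were 1.42, 0.82 and 3.21 TPM untreated and 0.58, 0.52 and 0.57 TPM with dox. The fall there was -0.91 on the log2 scale (SE 0.19, adjusted p = 0.00241, edgeR), and it was no longer called without untreated replicate 1 (-0.80), dox-treated replicate 2 (-0.88) or dox-treated replicate 3 (-0.95), or with effective lengths in the fit (-1.65, adjusted p = 0.0105). Untreated MIA PaCa-2 libraries were not alike in its transcripts, with the non-coding form ELOVL6-207 at 0.00% to 67.9% of the gene's TPM. The difference between the lines, 1.34 (SE 0.16, adjusted p = 5.89e-06, edgeR), remained called in all 19 alternatives.

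In all, 7 of 39 members differed between the lines in their response to dox (17.9%), next to 10.4% of 16544 genes. TM7SF2, MSMO1, SC5D, ELOVL6 and FADS2 were higher in Pa-Tu-8902 than in MIA PaCa-2 (background 6.56%), and ABCA1 and NCEH1 were lower (background 3.86%). Counting groups that do not overlap instead of calls, 30 of 38 members separated in depth-scaled counts in Pa-Tu-8902 (19 higher and 11 lower), next to 58.5% of all genes, and 24 of 38 did in MIA PaCa-2 (8 higher and 16 lower), next to 52.9%. The leading transcript of the 37 members other than FADS1 and STARD4 was the same with and without dox for all 37 in Pa-Tu-8902 and for 32 in MIA PaCa-2, and RSEM shares reads between transcripts, so these shares are estimates.

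**Figure D4:**
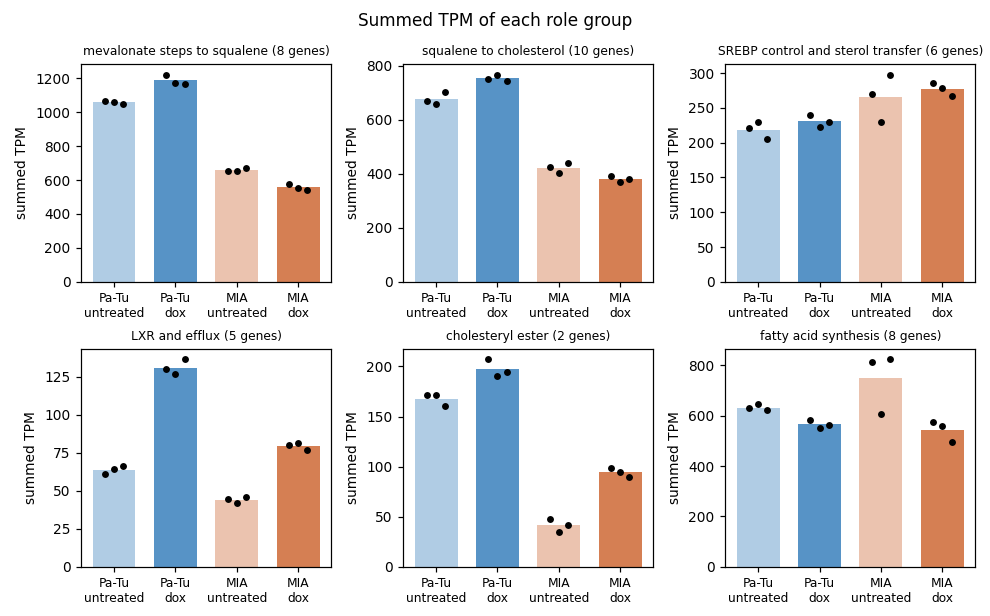
Summed TPM (y axis, from 0) of each role group by group of libraries; bars are means of 3 libraries, dots the libraries, blue Pa-Tu-8902 and orange MIA PaCa-2, dark with dox. The LXR group goes up in both lines (by 106% and 80.6%), the ester group by 128% in MIA PaCa-2, and the fatty acid group goes down by 27.5% there. The receptor gene NR1H2 weighs most in the LXR sum.

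The lines also began from different levels. Untreated, 25 of 39 members differed (64.1%), next to 57.5% of 16544 genes, with 17 higher in Pa-Tu-8902 (background 29.4%) and 8 lower (background 28.2%). The most abundant members were FDFT1 (308 ± 0.583 TPM, SD, n = 3), SCD (266 ± 3.31) and FDPS (226 ± 2.04) in Pa-Tu-8902, and SCD (387 ± 71.8), FDPS (310.35 as median, 303 to 318 TPM) and EBP (176 ± 12.2) in MIA PaCa-2. In Pa-Tu-8902 these 3 were apart by more than their spread, while in MIA PaCa-2 the lowest SCD library, 304 TPM, lay within the range of FDPS, and EBP overlapped with SREBF1 (166 ± 24.0) and FASN (158 ± 25.8). These are levels over all transcripts of a gene. Transcripts annotated as protein-coding took an estimated 18.5% of EBP's TPM there, against 58.7% for SREBF1 and 66.3% for FASN.

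Of the 18 cholesterol synthesis genes, 12 were called between the untreated lines (66.7%, next to 57.5% of all genes). They made up 10 of the 17 members higher in Pa-Tu-8902 (background 29.4%) and 2 of the 8 lower (background 28.2%). Of the 8 genes to squalene, 6 were higher there, among them HMGCS1 (log2 difference 1.89, SE 0.06, adjusted p = 5.30e-15, edgeR), while PMVK was lower (-0.62, and not called at -0.44 without untreated MIA PaCa-2 replicate 2). IDI1 (0.62) was also among the 6, and was not called at 0.55 without untreated MIA PaCa-2 replicate 3. SC5D (2.81), DHCR7 (2.02) and SQLE (2.00) were also higher, and HSD17B7 was lower (-1.29). Among the regulators, SREBF2 was higher in Pa-Tu-8902 (1.04) and SREBF1 lower (-1.30), as was INSIG1 (-0.67), with SREBF1 at 62.1 to 78.0 TPM in untreated Pa-Tu-8902 and 140.8 to 188.7 TPM in untreated MIA PaCa-2.

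Among the genes that handle sterols, NCEH1 was higher in Pa-Tu-8902 by 3.0 on the log2 scale (SE 0.07), NR1H3 by 2.5 and ABCA1 by 2.24, and ABCG1 was lower by 2.56. ELOVL6 was higher by 3.74 and FADS2 lower, with a log2 difference of -1.50. A pair of genes were nearly absent from 1 line each. FADS1 had 861 to 1157 counts per library in untreated MIA PaCa-2 and 1 count in all 3 untreated Pa-Tu-8902 libraries together, a ratio per depth of 3170 (95% interval 568 to 125000, exact Clopper-Pearson). STARD4 had 581 to 845 counts per library in untreated Pa-Tu-8902 and 1 count in all 3 of untreated MIA PaCa-2, a ratio of 1950 (95% interval 350 to 77200). These intervals cover counting error only.

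**Figure D5:**
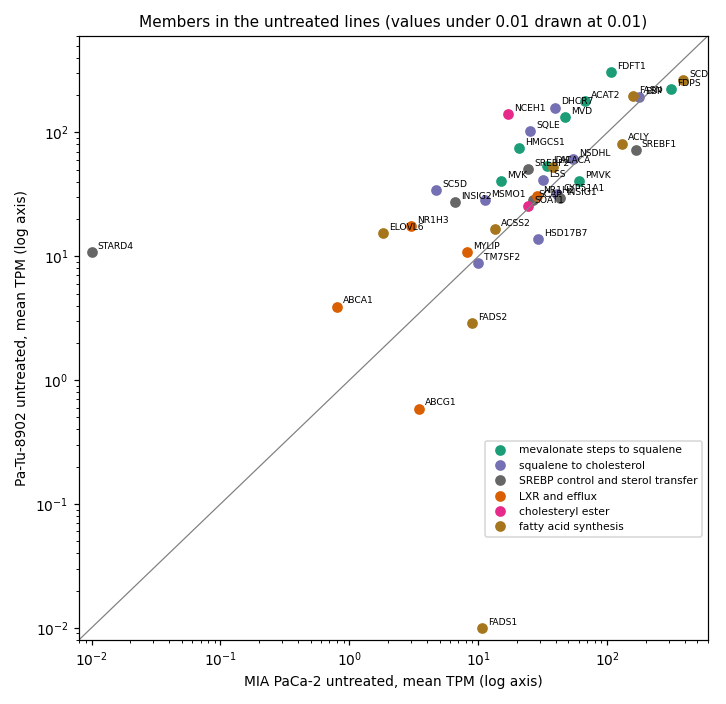
Mean TPM of each member in untreated MIA PaCa-2 (x axis, log scale) and untreated Pa-Tu-8902 (y axis, log scale), coloured by role, with the line of equality. STARD4 and FADS1 sit at the edge, drawn at 0.01 TPM, in 1 line each, NCEH1, NR1H3, ABCA1, ELOVL6 and SC5D lie above the line of equality, and ABCG1 and FADS2 below it.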

How the data were processed

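Poly(A) RNA of 12 libraries was sequenced with a strand-specific kit. The authors trimmed reads with Trimmomatic 0.39, aligned them with STAR 2.5.2a through RSEM 1.3.1 at default settings to GRCh38 with GENCODE 29, and deposited expected counts and TPM per gene and isoform, neither filtered nor pooled. The deposited expected counts (5.34% not whole) were rounded for the tests. The deposited TPM values were printed as levels and were not tested. RSEM's effective lengths, another deposited column, served an alternative only.

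A gene entered a fit when 3 or more of its libraries had 10 counts or more, and was tested with edgeR 4.0.16 (TMM, glmQLFit, glmQLFTest; R 4.3.3) in each line alone. The difference of the responses and of the untreated lines came from 1 fit of all 12 libraries. Standard errors are the absolute log2 fold change over the square root of F. Alternatives were DESeq2 1.42.0, its size factors, other filters, effective lengths, a replicate block, no fold limit, joint fitting and leaving out each library. The scripts were checked on simulated counts. Depths of 26226537 counts or more per library set the precision, and intervals cover counting error only.

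Positions are from GENCODE 44 on the same assembly. Line identity rests on the sample titles. Another table of the study names for Pa-Tu-8902 the counts deposited under MIA PaCa-2, so the naming is in doubt, while the levels of CDH1, EPCAM and VIM fit the titles. Members called for dox in a line, or for the difference of the responses, were named with every library's TPM, and the others by fold change or range. The members and gene lists were chosen with earlier results of these data known. Transcript shares came from the isoform TPM. FPKM tables and isoform counts were not used here, and some genes of the pathway are not reported here.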

Additional observations from a re-analysis of the deposited data

Results flagged for a closer look

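For 7 members the response to dox differed between the lines by the interaction contrast of edgeR, given as the log2 fold change in Pa-Tu-8902 minus that in MIA PaCa-2. The differences were 1.34 for ELOVL6, 1.33 for FADS2, 1.09 for TM7SF2, 0.84 for MSMO1, 0.76 for SC5D, -0.68 for ABCA1 and -1.82 for NCEH1. ABCA1 was the only one of these 7 whose call was lost under any alternative, in 6 of 19.

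Of 65 further pathway genes tested, 7 differed in the same way (10.8%, against 10.4% of all genes). LIPA, the lysosomal hydrolase of cholesteryl esters, rose in Pa-Tu-8902 and fell in MIA PaCa-2 (difference 1.97), and GRAMD1B, which carries sterol from the plasma membrane to the endoplasmic reticulum, rose in both (difference 1.57). PDSS2, a subunit of the synthase of the coenzyme Q side chain, differed by 0.80, and PCYT2, an enzyme of phosphatidylethanolamine synthesis, by 0.65. PDSS1, the partner of PDSS2, differed by -0.61, ERLIN1, an endoplasmic reticulum membrane protein, by -0.60, and the elongase ELOVL1 by -0.59. These 3 lie near the fold limit: of 19 alternatives, ELOVL1 lost its call in 12 (DESeq2 among them, at -0.58), ERLIN1 in 9 and PDSS1 in 6. GRAMD1B lost its call in 1, with effective lengths in the fit (1.20). No explanation of these differences was tested.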

How the results depend on the processing

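Calls of members held under most settings. Without the fold limit, Pa-Tu-8902 had 23 members called, MIA PaCa-2 18, and 12 were called for the difference of the responses, each count being over 1.5 times the one with the limit, since genes of any fold size then count. Leaving out 1 library at a time gave 7 to 8 calls for Pa-Tu-8902, 9 to 11 for MIA PaCa-2, 6 to 8 for the difference of the responses and 24 to 26 between the untreated lines. The 7 members called for Pa-Tu-8902, and 9 of the 10 for MIA PaCa-2 with ELOVL6 as the exception, were called in each of 14 alternatives. No called member changed direction, while uncalled members, 7 for MIA PaCa-2 and 2 for Pa-Tu-8902, changed sign under some alternative. Deviations of replicates from their group means correlated at -0.0935 to 0.139 within the 6 same-numbered pairs, and at -0.239 to 0.143 within the others. With means of only 3 libraries, this cannot tell whether same-numbered replicates shared a culture or a batch. With a replicate block, the counts were 7 (Pa-Tu-8902), 10 (MIA PaCa-2) and 7 (difference of the responses), and 25 between the untreated lines, where PMVK was lost and SCD gained. SCD passed for the difference of the responses in 13 of 19 alternatives. The filter of 10 counts in every library removed FADS1 and STARD4 from the comparison of the lines. The group medians of fatty acid genes (-0.67) and of genes to squalene (-0.19) in MIA PaCa-2 were -0.76 and -0.11 without untreated replicate 2. Depth limits FADS1 and STARD4, at most 1 count per library in 1 line each. It next limits ABCG1 in Pa-Tu-8902 (34 to 71 counts), and ELOVL6 (39 to 111) and NR1H3 (64 to 156) in MIA PaCa-2. ABCA1 was low in TPM but had 153 counts or more in every library.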

Other observations

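Besides the members, 68 further genes of the pathway were examined. In Pa-Tu-8902, 4 of 62 were called (6.45%, against 16.3%): LIPA (log2 fold change 0.85), GRAMD1B (2.53), DGAT2 (1.07) and, lower, PDSS2 (-0.92). In MIA PaCa-2, 4 of 63 were called (6.35%, against 12%): GRAMD1B (0.96) and, lower, PDSS2 (-1.73), LIPA (-1.12) and MBTPS2 (-0.67), which encodes a protease that releases SREBP.

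LIPA, the acid hydrolase that frees cholesterol in the lysosome, moved against NCEH1, its neutral counterpart, in MIA PaCa-2. It stood at 158.5, 120.7 and 155.4 TPM untreated and 75.8, 62.6 and 70.4 TPM with dox there, and at 56.2, 55.9 and 52.8 TPM and 110.01, 93.3 and 98.8 TPM in Pa-Tu-8902. The untreated lines thus differed in LIPA in the opposite sense to NCEH1, and with dox LIPA was higher in Pa-Tu-8902. GRAMD1B stood at 0.28, 0.28 and 0.40 TPM untreated and 1.20, 1.95 and 1.21 TPM with dox in Pa-Tu-8902, and at 4.55, 3.26 and 4.71 TPM and 9.43, 8.36 and 7.64 TPM in MIA PaCa-2. DGAT2, which makes triglycerides, stood at 10.4, 10.04 and 10.7 TPM and 21.2, 23.5 and 23.3 TPM in Pa-Tu-8902. No groups overlapped within a line for these 3 genes.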
